A study of Rattus norvegicus with 10 samples.

Results

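Rab GTPases are small switch proteins that mark the membranes of the cell's transport routes, and each binds effectors only while it holds GTP. Rab9 sits on late endosomes, where it helps return mannose 6-phosphate receptors to the Golgi after they have delivered lysosomal enzymes. In the kidney, these routes serve the proximal tubule, which takes up filtered protein at a high rate, and the collecting duct, which moves water channels in recycling vesicles. The genes described here are the Rabs, the Rab9 effector Rabepk, the factors that load and recover Rabs, and the Vps and sorting nexin proteins that sort endosomal cargo.

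Members were chosen by gene symbol: every probe set with a single symbol of these families on the rat expression array. The rule gave 126 of 15923 probe sets, for 97 of 10412 named genes: 44 Rab genes, 27 Vps genes, 16 sorting nexins and 10 others. Limma, a linear model, was fitted to the 9601 probe sets that passed a filter on dim signals. The family was proposed because Rabepk was the 1 of them whose difference between the groups passed an adjusted threshold of 0.05. The difference of Rabepk is therefore given as a description. Where a count below includes Rabepk, its call comes from the fit that chose it and supports nothing, and the comparison of the other members is read against all probe sets only.

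Total RNA of 10 fetal rat kidney samples, collected on day 22 of gestation close to birth, was hybridised to 1-colour Affymetrix arrays. In the normal group, 5 samples (replicates 1 to 5) came from fetuses of normal mothers on a regular diet. In the hyperinsulinemic group, 5 samples (replicates 6 to 10) came from growth-restricted fetuses of Wistar mothers of 200 to 280 g, also fed a normal diet. These mothers carried a 2 mm piece of a slow-release insulin implant under the skin, placed before mating and again after it. The labels used here give no litter, fetal sex or batch, and nothing says which samples share a mother. The p-values thus reflect the variation among these arrays alone, part of which may be technical. The study compared growth-restricted with normal fetal kidneys.

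The deposited values are MAS5 signals on a linear scale, and each array's median signal over all probe sets lay between 130 and 136.9. Of 10 kidney markers fixed for the check (proximal tubule, loop of Henle, collecting duct and podocyte), 9 were found and all 9 passed the filter on dim signals; 5 were higher and 4 lower in the hyperinsulinemic group. Genes known for high levels in liver differed between arrays, and the source of their transcripts was not tested. The summed signal of 10 liver genes ran from 1302 to 2900.1 in the normal group and from 1636.1 to 5576.3 in the hyperinsulinemic group, whose replicate 6 held the most Alb (1741.9). Of 7 tested liver genes, 6 were higher in the hyperinsulinemic group, where 51.5% of all tested genes were. The median over the 7 was 0.85, and 0 had an adjusted p under 0.05 in limma. At an unadjusted p under 0.05, 4 were higher and 0 lower (2.39% and 2.77% of all tested genes). Hp differed by 1.43 ± 0.40, Fgg by 1.21 ± 0.41 and Ttr by 0.85 ± 0.33, each highest in replicate 6. The 1 lower gene was Afp, a fetal liver gene. Its signal was lowest of all 10 arrays in replicate 6 (706.5), and its log2 difference was -0.07 ± 0.09. The summed signal of 5 adrenal genes, 0 of which passed the filter, ran from 108.1 to 913.7 and from 95.4 to 165. For 6 leukocyte genes it ran from 1010.5 to 1184.1 and from 1022.1 to 1158, and for 3 erythroid genes from 4930.9 to 6374.4 and from 5803.8 to 7894.7. Fits with the liver list as a covariate are given with Rabepk and with the processing alternatives. Otherwise the part of these genes in the results was not tested. The 3' to 5' signal ratio of Gapdh was 1.07 ± 0.0505 and 1.09 ± 0.0649 (SD, n = 5 each, exact two-sided permutation p = 0.746, and 0.746 after Benjamini-Hochberg adjustment over 4 array measures). Xist, which is made where there is more than a single X chromosome, ran from 0.8 to 2 in the normal group and from 42.4 to 70.5 in the hyperinsulinemic group, so fetal sex and treatment cannot be told apart. Values after ± are SDs for signals (n = 5 per group) and standard errors for log2 differences.

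Upstream sequence is shown for Rab9a and for Plin3, which encodes another Rab9 effector, and a short stretch for Rabepk. The sequences are RefSeq's for the GRCr8 assembly, whose table gave windows of 250 bases before and 50 after a start site for 80 of the 97 genes. The start that the table gives for Rabepk lies inside the annotated gene, so only 30 bases around a motif match are printed for it, at chr3:38480722-38480751 on the minus strand. Those of Rab9a (chrX:31609839-31610088, plus strand) and Plin3 (chr9:1210213-1210462, minus strand) are the 250 bases before the start. Capitals mark matches, on either strand, to the GC box GGGCGG, the CCAAT box CCAAT, the E-box CACGTG, the TATA box TATAAA and GGTTCGA from the polymerase III B box.
Rabepk: gagctgggaaTCGAACCcagggccttgcgc
Rab9a: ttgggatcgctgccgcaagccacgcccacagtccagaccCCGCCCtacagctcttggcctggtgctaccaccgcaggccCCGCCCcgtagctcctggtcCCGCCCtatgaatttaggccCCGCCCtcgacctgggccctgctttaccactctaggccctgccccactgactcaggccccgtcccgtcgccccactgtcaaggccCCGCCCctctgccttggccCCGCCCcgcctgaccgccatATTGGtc
Plin3: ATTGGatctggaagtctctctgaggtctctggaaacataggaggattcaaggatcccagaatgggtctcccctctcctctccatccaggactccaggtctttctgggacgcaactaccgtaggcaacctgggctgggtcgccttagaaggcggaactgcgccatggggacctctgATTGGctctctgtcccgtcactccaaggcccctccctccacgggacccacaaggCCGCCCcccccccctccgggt

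The upstream stretch of Rab9a held 6 GC box matches and 1 CCAAT match, with a GC content of 69.6%. That of Plin3 held 1 GC box and 2 CCAAT matches, at 61.2%. The 250 bases before the listed start of Rabepk reach into its annotated gene, unlike those of Rab9a and Plin3, so they are not a like comparison. They had a GC content of 50% and 1 match, to the B box, a motif of genes read by RNA polymerase III. Its letters were found in 0.965% of 27457 windows in the table, in 1.24% of those of 6126 genes with a tested probe set, and in 1 of 80 member windows. These shares and those that follow count matches over all 300 bases of a window, the 50 after the start included. The counts per gene above cover the 250 bases before it alone. A GC box was found in 68.8% of member windows, in 34.9% of all windows and in 65.8% of the tested genes' windows. The letters CACGTG were found in 15% of member windows, 6.65% of all and 9.91% of tested genes. A CCAAT match was found in 33.8% of member windows against 38.3% of tested genes, and TATAAA in 2.5% against 6.48%. A match is a run of letters in a window, not a bound site.

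Rabepk stood higher in every hyperinsulinemic kidney sample than in any normal one. It encodes p40, a kelch-repeat protein that binds GTP-loaded Rab9 and promotes endosome-to-Golgi transport. In normal replicates 1 to 5 its signal was 282.4, 241.8, 294.8, 279.1 and 305.1. In hyperinsulinemic replicates 6 to 10 it was 403.5, 429.8, 390.3, 512.7 and 425.6. The groups were separated by a gap between 305.1 and 390.3, and hyperinsulinemic replicate 9 was the highest array. The mean signals were 281 ± 24.0 and 432 ± 47.7, a ratio of 1.54, and the log2 difference of log2(signal + 16) was 0.59 ± 0.08. Without hyperinsulinemic replicate 6, the array with the highest mean of the liver list, the log2 difference was 0.62. With the mean log2 signal of the liver list as a covariate it was 0.63, and 0 of all 9601 probe sets, Rabepk included, then had an adjusted p under 0.05 in limma, with 5.07% at an unadjusted p under 0.05. In samples of whole kidney, a change in the number of cells that hold a transcript and a change per cell cannot be told apart. Among the kidney markers, the proximal tubule gene Slc5a2 had mean signals of 439 ± 53.9 and 357 ± 42.2 (log2 difference -0.29 ± 0.10; limma, adjusted p = 0.870), and the collecting duct gene Aqp2 a log2 difference of 0.45 ± 0.11 with groups that did not overlap (limma, adjusted p = 0.540). The other proximal tubule genes of the list had intervals that included 0. Their log2 differences were 0.03 ± 0.05 (Lrp2), -0.02 ± 0.06 (Cubn) and 0.04 ± 0.05 (Slc34a1). The part of these markers in the Rabepk difference was not tested. Rabepk is represented by 1 probe set, so no second probe set was there to compare.

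Its partners on the Rab9 route had smaller differences, with intervals that included 0. Rab9a, the GTPase that Rabepk binds, lies on the X chromosome. Its signal was 424.1, 406, 407.9, 444.5 and 422.3 in normal replicates 1 to 5, and 341.6, 428.7, 414.5, 383.9 and 420.2 in hyperinsulinemic replicates 6 to 10. The groups overlapped, with replicate 6 the lowest array, and the log2 difference was -0.08 ± 0.07 (95% interval -0.23 to 0.06).

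M6pr encodes the cation-dependent mannose 6-phosphate receptor, a cargo that Rab9 returns to the Golgi. Its signal was 994, 910.8, 954.1, 955.4 and 966.2 in the normal samples, and 974.4, 961.8, 940.5, 886.9 and 982 in the hyperinsulinemic samples. The ranges nearly coincided, and the log2 difference was -0.01 ± 0.05 (95% interval -0.12 to 0.09).

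Plin3 encodes TIP47, which binds the tails of these receptors together with Rab9 and also coats lipid droplets. Its signal was 677.7, 497.8, 625.2, 586.8 and 551.2 in the normal samples, and 538.5, 483.5, 515.5, 555.6 and 607.1 in the hyperinsulinemic samples. The groups overlapped and the log2 difference was -0.12 ± 0.08 (95% interval -0.29 to 0.06).

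**Figure D1:**
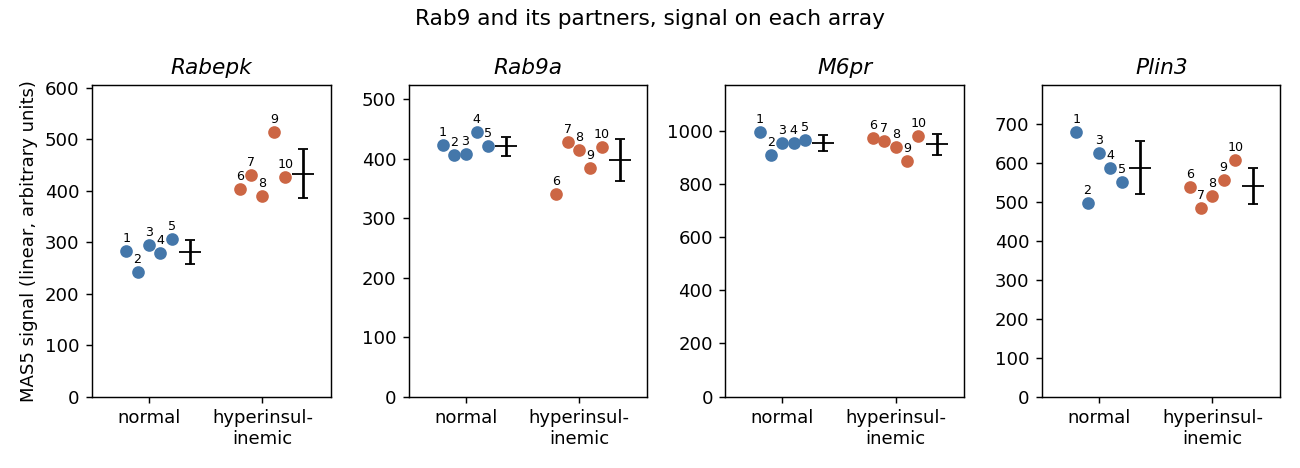
MAS5 signal (vertical axis, linear, starting at 0) of Rabepk, Rab9a, M6pr and Plin3 on each array, with normal samples in blue and hyperinsulinemic samples in orange; numbers are replicates and black bars are mean ± SD (n = 5 each). Rabepk runs from 241.8 to 305.1 in normal and from 390.3 to 512.7 in hyperinsulinemic samples, while the groups overlap for the other 3 genes.

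The rest of the family lay near 0. Of the 126 probe sets, 105 (86 genes) passed the filter, which asked that 5 or more arrays reach their own 40th percentile. Of these, 51 were higher and 54 lower in the hyperinsulinemic group, where 50.9% of all 9601 tested probe sets were higher. The median log2 difference was -0.0016 over the tested members and 0.0020 over all tested probe sets. Rabepk was the 1 member with an adjusted p under 0.05, where 0.0104% of all tested probe sets, itself alone, had one. An unadjusted p under 0.05 in limma was reached by 4 members, or 3.81%, against 5.36% of all tested probe sets. Of those 4, 1 was higher (Rabepk; 2.44% of all probe sets) and 3 were lower (2.93% of all). The groups did not overlap for 1 member, Rabepk, or 0.952%, against 1.04% of all. Since the family was built around Rabepk, these counts describe it and support nothing further.

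Leaving out Rabepk, the log2 differences of the other 104 tested probe sets ran from -0.19 to 0.16, with a median size of 0.05 against 0.06 over all tested probe sets. Their 95% intervals reached at most 0.40 upward and -0.47 downward. For 62 of them the interval lay within a change of 1.2-fold in either direction. Spread between samples of a group was a median SD of 0.12 on the log2 scale for members, from 0.03 to 0.31, and 0.13 over all tested probe sets.

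**Figure D2:**
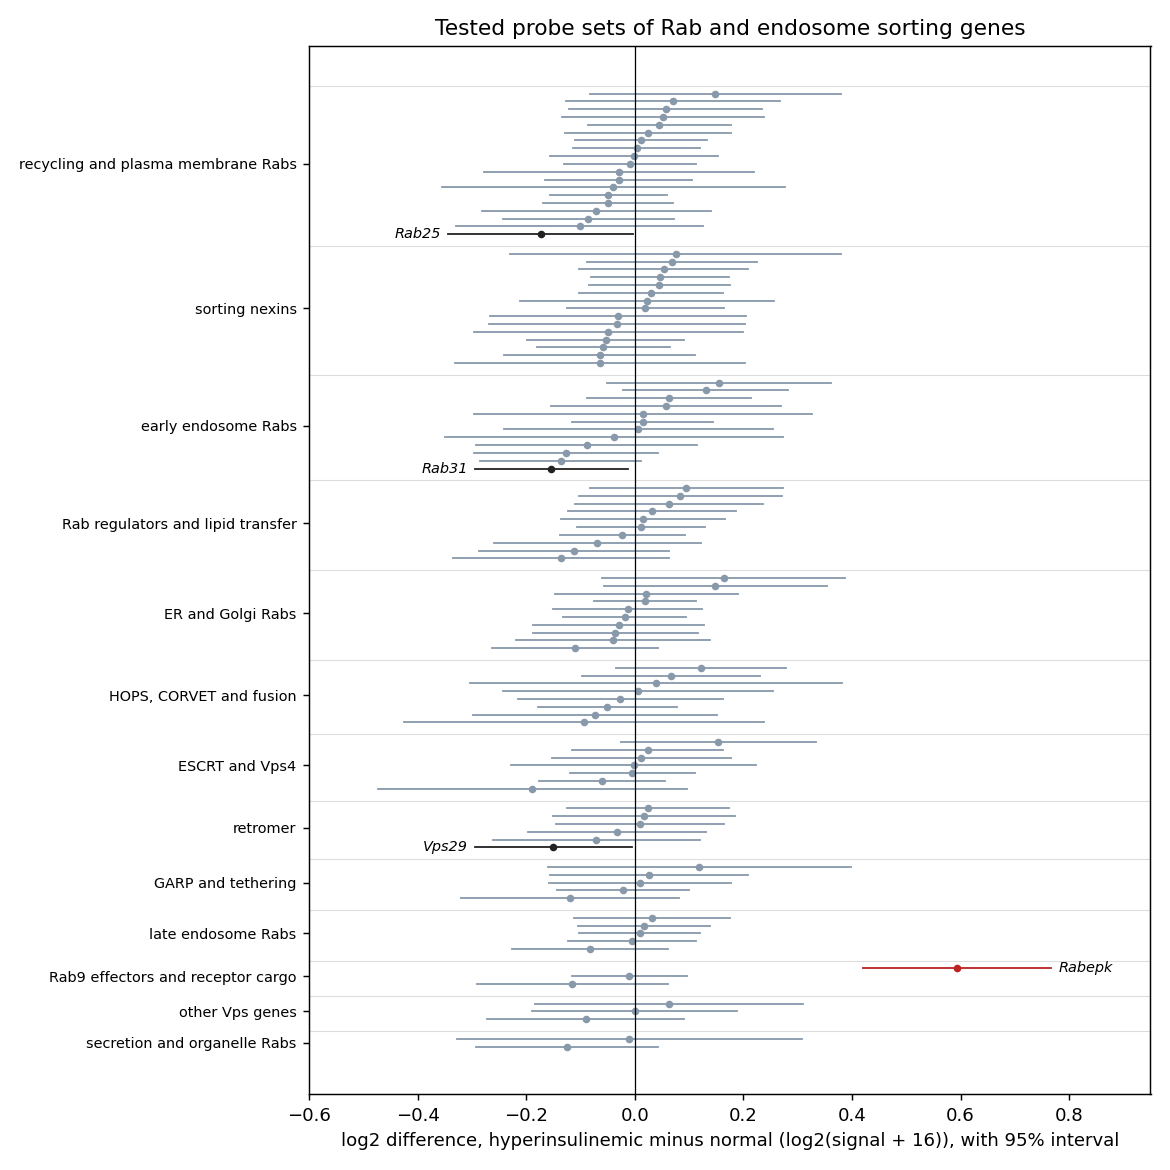
Log2 difference (horizontal axis, hyperinsulinemic minus normal, log2(signal + 16)) with its 95% interval for the 105 tested probe sets, grouped by role on the vertical axis. Rabepk in red stands at 0.59; the members in black, Rab25, Rab31 and Vps29, have an unadjusted p under 0.05 with intervals below 0, and the other members, in grey, have intervals that include 0.

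Among Rabs of early endosomes, which govern the first sorting step after uptake, 7 of 12 tested probe sets were higher and 5 lower, with a median log2 difference of 0.01. Rab31, which moves cargo between the Golgi and endosomes, was lower. Its signal was 399.2, 366.9, 369.1, 394.1 and 361.3 in normal replicates 1 to 5, and 302.7, 370.2, 361.4, 333.4 and 326.4 in hyperinsulinemic replicates 6 to 10. The groups overlapped through replicates 7 and 8, and the log2 difference of -0.15 ± 0.07 did not pass over all probe sets (limma, adjusted p = 0.918). A dimmer Rab31 probe set, below the filter, had means of 59.5 ± 9.10 and 48.0 ± 17.4. The 2 probe sets of Rab22a, an endosomal Rab of recycling tubules, gave 0.15 ± 0.10 and 0.01 ± 0.12. Those of Rab5b, a Rab of early endosome fusion, gave -0.14 ± 0.07 and 0.01 ± 0.06.

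Rabs of recycling and of the plasma membrane had 8 of 19 tested probe sets higher and 11 lower, with a median of -0.01. Rab25, an epithelial relative of Rab11 in apical recycling, had signals of 162.7, 165.7, 155.3, 174.9 and 165.3 in the normal samples, and 155.2, 135.1, 154.7, 155.6 and 123 in the hyperinsulinemic samples. The 4 hyperinsulinemic samples other than replicate 9 lay below every normal one, and the difference was -0.17 ± 0.08 (limma, adjusted p = 0.918). Rab35, a Rab of fast recycling, differed by 0.15 ± 0.11, and the 2 probe sets of Rab10, which carries glucose transporters to the surface in fat cells, by -0.10 ± 0.11 and -0.01 ± 0.06. Rab11a and Rab11b, the recycling Rabs through which the water channel of the collecting duct passes, each had 2 tested probe sets, with log2 differences between 0.00 and 0.06. The water channel gene Aqp2 itself had mean signals of 1299 ± 242 and 1756 ± 175, the difference given beside Rabepk, which did not pass.

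Late endosomal Rabs besides Rab9a were close to 0 as well. Rab7a, the Rab of fusion with lysosomes, gave -0.01 ± 0.06 and 0.03 ± 0.07 on its 2 probe sets, and Rab29, which acts at the Golgi and lysosome, gave 0.02 ± 0.06. In the Rabs of the endoplasmic reticulum and Golgi, 4 of 10 tested probe sets were higher and 6 lower. Rab40c, which belongs to a ubiquitin ligase complex, differed by 0.16 ± 0.10, Rab18 of lipid droplets and the endoplasmic reticulum by -0.11 ± 0.07, and Rab2b of Golgi traffic by 0.15 ± 0.10 on one probe set and -0.03 ± 0.07 on the other. Only 2 of the 8 Rabs of secretion and special organelles passed the filter. They were Rab3d, of regulated secretion, at 176 ± 11.7 and 160 ± 15.3, and Rab38, of lysosome-related organelles, at 105 ± 10.7 and 106 ± 26.6.

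The factors that load and recover Rabs, counted together with the effectors Rabep1 and Rabep2, had 6 of 10 tested probe sets higher and 4 lower. Chm, the X-linked gene of the escort protein that presents new Rabs for prenylation, stood at 120 ± 8.47 and 108 ± 13.1 (log2 difference -0.14 ± 0.09). A dimmer Chm probe set, below the filter, had means of 13.4 ± 4.75 and 7.56 ± 3.30. The gene of the beta subunit of the prenylating enzyme, Rabggtb, stood at 1250 ± 125 and 1157 ± 133. Rabep2, an effector of endosome fusion, stood at 94.9 ± 6.62 and 102 ± 7.74. Rab9a, Chm and the sorting nexin gene Snx12 (0.02 ± 0.07) were the 3 X-linked member genes; 221 tested X-linked probe sets had a median log2 difference of -0.02.

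Retromer, the coat that sends receptors from endosomes to the Golgi, and the related retriever had 3 of 6 tested probe sets higher and 3 lower. Vps29, a subunit shared by both, had signals of 854.2, 820.1, 753.6, 756.5 and 856.8 in the normal samples. In hyperinsulinemic replicates 6 to 10 it stood at 659.4, 675.8, 727.1, 757.1 and 818.9. The 3 lowest arrays were hyperinsulinemic replicates 6, 7 and 8, while replicates 9 and 10 lay inside the normal range, and the log2 difference of -0.15 ± 0.07 did not pass (limma, adjusted p = 0.918). The other retromer subunits did not follow: Vps26a gave 0.01 ± 0.07 and -0.03 ± 0.08, and Vps35 gave 0.02 ± 0.07. Vps26c, of retriever, gave -0.07 ± 0.09.

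**Figure D3:**
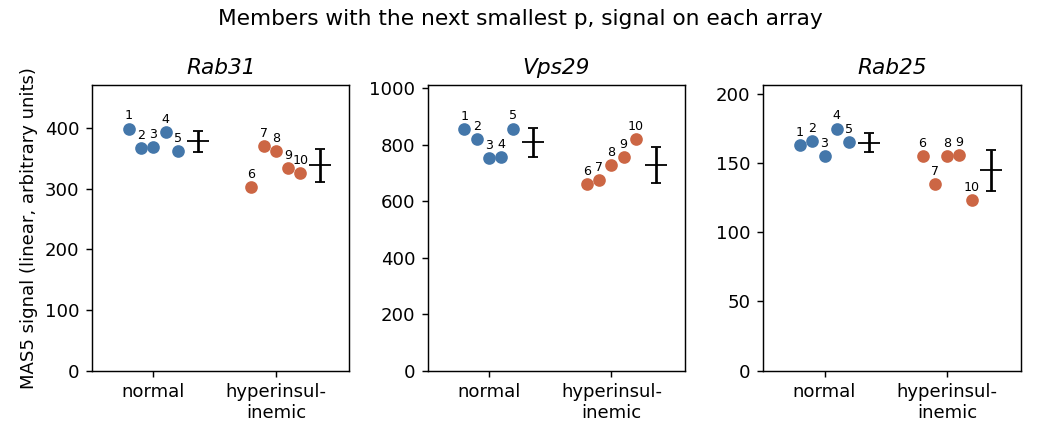
MAS5 signal (vertical axis, linear, starting at 0) on each array for Rab31, Vps29 and Rab25, the members with the smallest unadjusted p after Rabepk; colours, replicate numbers and bars (mean ± SD, n = 5 each) are as for Rabepk. In all 3 genes the hyperinsulinemic mean is lower and the groups overlap.

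In the tethering complexes HOPS and CORVET and their fusion partners, 4 of 8 tested probe sets were higher and 4 lower. Vps16, a core subunit of both, differed by 0.12 ± 0.07, Vps33b, which pairs with a relative of Vps16, by -0.09 ± 0.16 and the SNARE regulator Vps45 by -0.07 ± 0.11. ESCRT genes, which form vesicles inside endosomes, had 3 of 7 higher and 4 lower. Vps37a and Vps37c, alternative subunits of the same complex, differed by -0.19 ± 0.13 and 0.15 ± 0.08, and Vps28 by -0.06 ± 0.05. In the GARP tether at the Golgi and its relatives, 3 of 5 were higher. Vps54 differed by -0.12 ± 0.09, Vps52 by 0.12 ± 0.13 and 0.03 ± 0.09 on 2 probe sets, and Vps50, of the endosomal sister complex, by -0.02 ± 0.06. A dimmer Vps52 probe set, below the filter, had means of 22.6 ± 7.61 and 29.1 ± 6.27.

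Sorting nexins, which bind endosomal phosphoinositides, had 8 of 15 tested probe sets higher and 7 lower, all between -0.06 and 0.08. Snx14 differed by 0.08 ± 0.14, Snx17, which recycles lipoprotein receptor family members, by 0.07 ± 0.07, and Snx33 by -0.06 ± 0.12. Of the remaining Vps genes, the lipid transfer protein genes Vps13b and Vps13c differed by -0.00071 ± 0.09 and -0.09 ± 0.08. Vps72, which despite its name encodes a chromatin remodelling subunit, differed by 0.06 ± 0.12.

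Some genes had several tested probe sets, which gives a second look at the same transcript. Of 17 such genes, 11 had probe sets with the same sign and 6 with mixed signs. The gap between a gene's highest and lowest log2 difference had a median of 0.04 and reached 0.18, for Rab2b. These gaps are about as large as the differences of the members themselves.

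The 21 member probe sets below the filter had signals from 0.6 to 104.2, and their groups overlapped in every case. They left 11 genes with no tested probe set: Rab39a, Rab6b, Rab15, Rab8b, Rab26, Rab27a, Rab27b, Rab3a, Rab3b, Rab3c and Snx19. Among them were the synaptic vesicle Rabs Rab3a, Rab3b and Rab3c. Rab6b ran from 45.1 to 69.4 in the normal and from 62.2 to 80.2 in the hyperinsulinemic group.

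Single arrays differed in how often they held a member's extreme value. Hyperinsulinemic replicate 6 was the lowest array for 22 of 105 tested members and the highest for 16. Replicate 10 was lowest for 20, and replicate 7 highest for 20. Over all tested probe sets replicate 6 was lowest for 17.0%, replicate 10 lowest for 14.4% and replicate 7 highest for 14.5%, against 21.0%, 19.0% and 19.0% of members. Normal replicate 5 was highest for 17 members, or 16.2%, against 9.32% of all probe sets. The median deviation of the members from their own means stayed between -0.03 and 0.03 on every array, so no array was shifted as a whole for this family.

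**Figure D4:**
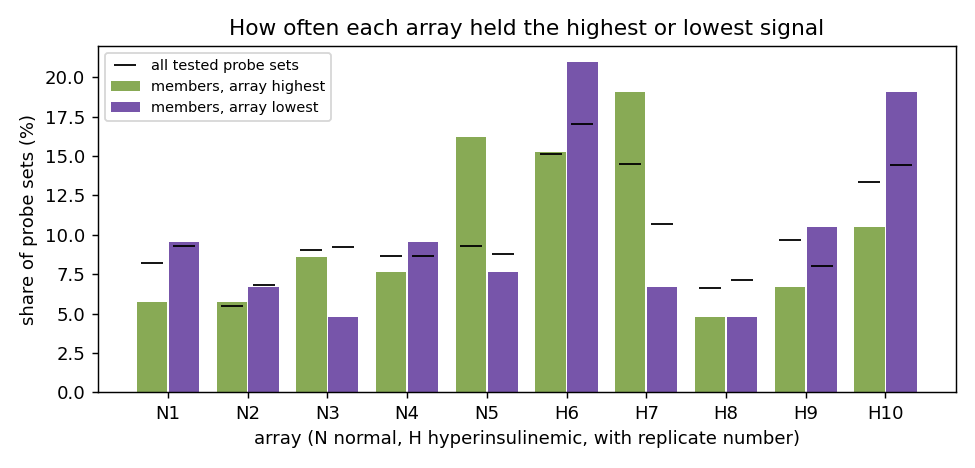
Share of the 105 tested member probe sets (vertical axis, percent) for which each array (horizontal axis, N normal and H hyperinsulinemic with the replicate number) held the highest signal (green) or the lowest (purple); black dashes give the same share over all 9601 tested probe sets. Replicates 6 and 10 hold the lowest value for 21.0% and 19.0% of members, above the share over all probe sets.

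Genes that work with the family but lie outside its symbols did not pass the test either, counted with the brightest probe set of each gene. Over all 7267 tested genes the median log2 difference was 0.0029, 51.5% were higher, and at an unadjusted p under 0.05 2.39% were higher and 2.77% lower. Of 25 tested Rab exchange factor and GTPase-activating protein genes, 0 passed in limma, and 2 were higher and 0 lower at an unadjusted p under 0.05, with 18 of 25 higher and a median of 0.05. Madd, an exchange factor for Rab3 and Rab27, stood at 160 ± 19.9 and 196 ± 29.7 (0.26 ± 0.11), Sgsm2 at 92.6 ± 6.72 and 109 ± 12.5, and Dennd3 at 302 ± 6.61 and 272 ± 27.5. Of 30 tested Rab effectors, 0 passed and 1 was lower at an unadjusted p under 0.05, with a median of -0.01. That gene was Myrip, which links Rab27 to myosin (109 ± 7.90 and 91.2 ± 14.7); Rab11fip4 differed by 0.10 ± 0.06 and Ehbp1 by -0.13 ± 0.08.

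The mannose 6-phosphate receptor route and the lysosomal enzymes it delivers had 44 tested genes, of which 20 were higher and 24 lower, with a median of -0.01. None of the 44 passed in limma; 1 was higher and 3 lower at an unadjusted p under 0.05, where 2.39% and 2.77% of all tested genes were. The Golgi adaptor gene Gga3, whose protein loads these receptors into vesicles, stood at 134 ± 16.8 and 171 ± 26.0 (0.31 ± 0.10). Asah1, acid ceramidase, stood at 397 ± 26.4 and 356 ± 16.1, and the adaptor subunit gene Ap1g1 at 261 ± 27.9 and 227 ± 14.0. Among 44 other endosome genes, 13 were higher and 31 lower, with a median of -0.01, where 51.5% of all tested genes were higher. In limma 0 passed, and 1 was higher and 1 lower at an unadjusted p under 0.05. Fig4, the phosphatase that helps control an endosomal phosphoinositide, stood at 125 ± 18.6 and 90.5 ± 13.4 (-0.41 ± 0.11, limma, adjusted p = 0.676). Chmp6, of an ESCRT complex, differed by 0.18 ± 0.08 and Ap2s1, of the clathrin adaptor at the cell surface, by -0.13 ± 0.06.

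Genes that lie beside Rabepk on rat chromosome 3 in the GRCr8 assembly were listed after the members had been seen. Of 12 protein-coding neighbours, 6 on each side, 7 had a tested probe set. The adjacent Hspa5, the main chaperone of the endoplasmic reticulum, stood at 1673 ± 133 and 1712 ± 184 (log2 difference 0.03 ± 0.08). The next gene, Gapvd1, an exchange factor for Rab5, stood at 222 ± 33.7 and 233 ± 49.3. All 7 neighbours were higher, by 0.01 to 0.09, every interval included 0, and the highest upper limit was 0.32. Over all tested probe sets 50.9% were higher, and Gapvd1 is also counted among the exchange factors above.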

How the data were processed

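The deposited table held 1 intensity on a linear scale for each probe set of an array, summarised with MAS5 per the submitters' processing notes. Version and settings of that algorithm are not given in the sources used here. Genes were named from GEO's platform annotation where a probe set had 1 symbol (12789 of 15923 probe sets; 312 had several and 2822 none here). Of the 312 with several symbols, 5 had at least 1 symbol of these families and were left out. Of the 126 member probe sets, 125 matched GRCr8's gene table by Entrez identifier.

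Signals were transformed as log2(signal + 16), which understates the change of dim genes, and 57 control probe sets were left out. All 9601 probe sets that passed the filter were fitted with limma 3.58.1 in R 4.3.3 (lmFit, then eBayes with trend), and two-sided p-values were adjusted by Benjamini-Hochberg. The fit was tested on simulated data. Single values were compared by exact permutation, whose smallest possible p with 5 arrays a group is 0.00794. Precision is limited by the number of arrays. Groups came from sample titles. Named members were Rabepk and its Rab9 partners, members with an unadjusted p under 0.05 or groups that did not overlap, and up to 3 per role with the largest difference. In other lists, up to 3 genes with the smallest p were named. Genes named beyond this (Rab11a, Rab11b, Vps35, Snx12, Rab6b, Aqp2, Afp, Lrp2, Cubn, Slc34a1 and the neighbours of Rabepk) were chosen after their values were seen. Members and lists were chosen with earlier results of these data known. Alternatives were pseudocounts of 1 and 32, other normalizations, filters and variance models, array weights, a liver covariate and leaving out each array. Figures used Python 3.11.15 and matplotlib 3.10.9.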

Additional observations from a re-analysis of the deposited data

Results flagged for a closer look

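Within a group of 5 arrays, 10 of 96 groups checked had an array far from the others by Dixon's criterion; chance gives about 1 in 20. Vps72 was 639.4 in normal replicate 4, where the nearest other normal array had 444.1. Rab35 was 282.6 in normal replicate 2 (nearest 224), and Rab3d was 196.1 in normal replicate 5 (nearest 173.6). Vps52 was 80.3 on one of its probe sets in normal replicate 1 (nearest 119.5). Chm was 105 in normal replicate 2 (nearest 121.5) and 85.4 in hyperinsulinemic replicate 10 (nearest 110.3). Rab38 was 60.1 in hyperinsulinemic replicate 6 (nearest 111.5). Among the array measures, Alb was 842.2 in normal replicate 4 (nearest 66.9) and 1741.9 in hyperinsulinemic replicate 6 (nearest 436.4), and the mean log2 signal of the liver list was 7.57 in normal replicate 4 (nearest 6.27). Rabepk, Rab9a, M6pr and Plin3 had no such array.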

How the results depend on the processing

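Under all 19 alternatives Rabepk was higher, by a log2 value of 0.53 to 0.63, and its adjusted p was under 0.05 in 10 of them. Over all fitted probe sets, 1 had an adjusted p under 0.05 in the main limma fit, and 5 of 15866 without the filter. That number was 4 with array weights and 4 without hyperinsulinemic replicate 6. Rabepk was included in all of these. Without hyperinsulinemic replicate 10 the number was 1, a probe set other than Rabepk. The count of members past the adjusted threshold, 1 with all arrays, was 0 without the intensity trend and 0 with the liver covariate, and ran from 0 to 1 when each array was left out; it was 0 without normal replicate 1, 2, 3 or 4 or hyperinsulinemic replicate 7, 9 or 10. Members at an unadjusted p under 0.05 ran from 2 to 5 of 105 when each array was left out, against 4 with all arrays. The share of all tested probe sets ran from 3.78% to 6.12% in the same fits, against 5.36% with all arrays. The count was 2 on dropping normal replicate 1 (4.46% of all probe sets) or hyperinsulinemic replicate 6 (5.79%). It was 5 on dropping normal replicate 3 (3.78%) or hyperinsulinemic replicate 10 (5.78%). With the liver covariate, the members at an unadjusted p under 0.05 were Rab25, Rabepk, Rabggtb, Snx14 and Vps37c (5.07% of all probe sets). Without hyperinsulinemic replicate 6 they were Rab25 and Rabepk. Rab31 and Vps29 were thus not among them in either fit. Members whose groups did not overlap were 2, Rabepk and Rab31, with arrays shifted to a common median and 2 with quantile normalization, and ran from 1 to 3 when each array was left out. Leaving out an array lowers the bar for not overlapping. The share of all tested probe sets whose groups did not overlap was counted with the main setting alone (1.04%). The counts of members that did not overlap under other settings thus have no background of their own, and nothing is read from them. The median over members stayed between -0.01 and 0.01. Of 44 other named probe sets, 15 changed sign under some alternative, and 0 of those had a difference of 0.1 or more in size. No paired analysis was possible because the groups share no replicate numbers. The cause of the lost calls was not tested.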
